A study of Drosophila melanogaster with 4 samples.

Results

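Glutamate and GABA metabolism and transport was followed through 5 fruit fly genes, Gad1, Gabat, Gdh, Gs2 and Eaat2, in heads of gabapentin-fed males. The genes were taken by symbol: every spot whose only gene symbol in the platform annotation is 1 of the 5 was included. This gave 12 of 27648 spots and 6 of 13824 cDNA clones, since each clone was spotted in duplicate and Gad1 has 2 clones. The rule itself uses no measured value, but the genes were proposed with earlier results of these data known.

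Glutamate and GABA are linked by a short chain of reactions. Glutamate dehydrogenase, encoded by Gdh, interconverts glutamate and 2-oxoglutarate, and glutamine synthetase turns glutamate into glutamine, in the nervous system mainly in glia. Glutamate decarboxylase, encoded by Gad1, removes a carboxyl group from glutamate to give GABA, the main inhibitory transmitter of the fly brain, and GABA transaminase, encoded by Gabat, breaks GABA down. Excitatory amino acid transporters such as Eaat2 take acidic amino acids up into cells, and the fly Eaat2 protein is known to carry aspartate and taurine better than glutamate. Gabapentin was designed as an analogue of GABA, and in mammals its known binding site is the alpha2delta subunit of calcium channels that open with voltage.

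The study fed gabapentin at 16 mg/ml for 3 days to unmated Oregon-R wild-type males, and kept control males on normal food without the drug. Flies entered the treatment when 10 to 11 days old, in vials of 30, and RNA was taken from pools of heads, so that a value is a mean over many flies and over all cell types of the head. In such pools fewer cells of a type and less RNA per cell cannot be told apart. A pool from gabapentin-fed flies and a pool from normal food flies were labelled with different dyes and hybridised together on each of 4 arrays, with gabapentin in Cy5 on arrays 1 and 2 and in Cy3 on arrays 3 and 4. The arrays are biological replicates, per the series' design text, and both conditions are paired within each of them.

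Each deposited value is a ratio of both dyes for 1 spot, taken here as a log2 ratio. Its direction, gabapentin over normal food or the reverse, is not stated in the labels. The sample titles read NF-GBP, with normal food named first, but do not say how the ratio was formed. The mean and limma test of each gene of the group are therefore given in 2 readings, but neither covers the reverse direction. Values on single arrays are as deposited unless stated otherwise, and some descriptions are given in 1 reading only. If the ratios were deposited in reverse, every sign in both readings would be the opposite. In the first reading the values are taken as Cy5 over Cy3, and arrays 3 and 4 have their sign turned to give gabapentin over normal food. In the second reading all columns are taken as gabapentin over normal food already. The deposited columns have medians of 1.14, 0.80, 0.52 and 0.78 over the clones of arrays 1 to 4, and unless stated otherwise values are given relative to these medians.

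The filter of the authors left 4 of the 5 genes with enough values to test. Gad1, Gdh and Gs2 had a value on all 4 arrays in 1 clone each, Eaat2 on 3 arrays and Gabat on 2, whereas the second clone of Gad1 had none. Across all clones a value on all 4 arrays was rare, at 1.35%, and 6.18% had a value on at least 3 arrays. Arrays 1 to 4 had a value for 1880, 2170, 1376 and 668 clones. Medians and percentiles thus refer to a different set of clones on each array, the smallest on array 4. In all, 17 of 24 possible values of the 6 clones were present, each backed by both spots. The duplicate spots differed by a median of 0.08 log2 units, against 0.17 over all clones, and 12 of the 17 pairs lay at or below that median difference. The 2 widest pairs both belonged to Eaat2. Spots of 1 array do not measure agreement between arrays, which was weak. As deposited, Pearson r over clones with a value on both arrays ran from 0.09 for arrays 2 and 4 to 0.35 for arrays 3 and 4. Turning arrays 3 and 4 makes r negative for every pair that joins both dye orientations. It leaves r at 0.20 for arrays 1 and 2 and at 0.35 for arrays 3 and 4.

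As deposited, Gdh had the highest mean of the group relative to the array medians, although Gs2 was higher on array 3 and Eaat2 and Gs2 on array 4. The values of Gdh as deposited were 0.45, 0.61, 0.61 and 0.01 on arrays 1 to 4. Gdh was thus well above the median on arrays 1, 2 and 3, with gabapentin in Cy5 on the first pair and in Cy3 on array 3, and at the median on array 4. Among all clones with a value on the array, Gdh lay at percentile 94.4, 97.6, 91.0 and 51.3. The single spots gave 1.63 and 1.55 before centring on array 1, 1.12 and 1.14 on array 3, and 0.81 and 0.77 on array 4, so that the low value on array 4 was seen in both spots. The pair differed most on array 2, by 0.19 log2 units.

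Gdh, which links glutamate to the citric acid cycle, did not pass the test for a gabapentin effect in either reading. With arrays 3 and 4 turned, its mean was 0.11 ± 0.19 log2 units (SE, n = 4), with a 95% interval from -0.30 to 0.52 (limma, Benjamini-Hochberg adjusted p = 0.999). With all columns as deposited, the mean was 0.42 ± 0.14 (SE, n = 4), a 1.34-fold ratio, with an interval from 0.13 to 0.72 and a limma adjusted p of 0.211. That adjusted p ran from 0.101 to 0.420 over the other settings that centred the arrays. The exact sign-change test over the arrays gave a two-sided p of 0.875 in the first reading, and in the second the smallest p that 4 arrays allow, which is above the threshold. In the first reading the sign of Gdh hung on single arrays: its mean was 0.00 without replicate 1, -0.06 without replicate 2, 0.35 without replicate 3 and 0.15 without replicate 4.

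Gs2, a cytosolic glutamine synthetase, was above the median on all 4 arrays as deposited, and so below it on arrays 3 and 4 once these are turned. Its values as deposited were 0.08, 0.28, 0.67 and 0.18 on arrays 1 to 4. Array 3 was the highest, and array 1 lay nearest to the median. Among all clones of its array, Gs2 ranged from percentile 61.3 on array 1 to percentile 92.9 on array 3. Its duplicate spots differed by 0.02 to 0.14 log2 units.

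The sign of the Gs2 mean depended on the reading. With arrays 3 and 4 turned it was -0.12 ± 0.17 (SE, n = 4), with a 95% interval from -0.49 to 0.25 and a limma adjusted p of 0.999. As deposited it was 0.30 ± 0.13 (SE, n = 4), a 1.23-fold ratio, with an interval from 0.01 to 0.59 and a limma adjusted p of 0.296, which ran from 0.206 to 0.848 over the other centred settings. Without replicate 3, the array with the highest value, the means were 0.06 and 0.18 in the first and second reading, so that in the first the sign changed and in the second the mean shrank by more than 1.5 times. The exact sign-change test gave a two-sided p of 0.75 in the first reading, and in the second again the smallest that 4 arrays allow.

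**Figure D1:**
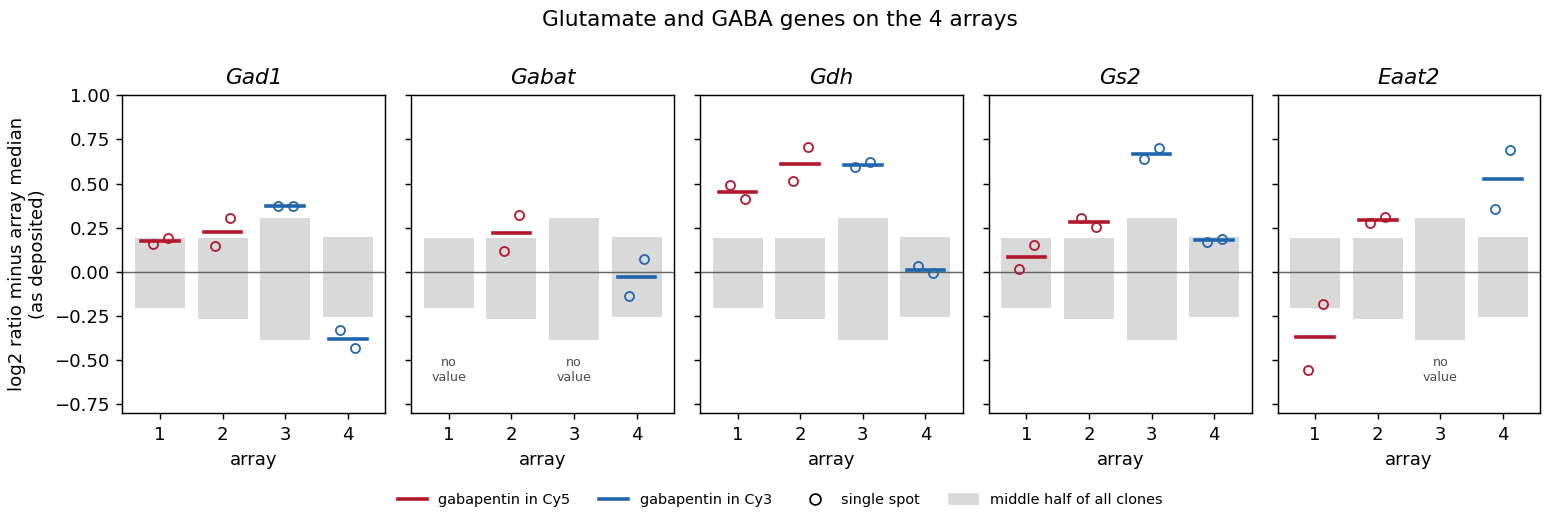
Log2 ratio minus the array median, as deposited, of Gad1, Gabat, Gdh, Gs2 and Eaat2 on arrays 1 to 4. Open circles are single spots, lines are their mean, red marks gabapentin in Cy5 and blue gabapentin in Cy3, and grey boxes span the 25th to 75th percentile of all clones on the array; Gdh stands above the boxes on arrays 1, 2 and 3, and Gs2 is above 0 on all 4.

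Gad1, the enzyme of GABA synthesis, stood at 0.18, 0.23, 0.37 and -0.38 on arrays 1 to 4 as deposited. Array 4 alone lay below its median, at percentile 18.3 of its clones, and arrays 1 to 3 lay at percentile 73.3 to 79.9. The low value on array 4 was seen in both duplicate spots, at 0.45 and 0.34 before centring. Its SD over the arrays as deposited was 0.33, and 75.1% of the clones tested had a smaller one. With arrays 3 and 4 turned the SD was again 0.33, and 61.0% had a smaller one.

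Means of Gad1 were close to 0 in both readings. They were 0.10 ± 0.16 with arrays 3 and 4 turned (SE, n = 4, 95% interval -0.25 to 0.45, limma adjusted p = 0.999) and 0.10 ± 0.14 as deposited (interval -0.21 to 0.41, limma adjusted p = 0.780). The bounds correspond to ratios of gabapentin over normal food between 0.84 and 1.37 in the first reading and between 0.86 and 1.33 in the second, relative to the array medians. These bounds are 95% limits around the Gad1 means, before adjustment over all tested clones, and not a limit of detection. A ratio near the upper bound of the second reading did not pass for Gdh, at 1.34-fold with a limma adjusted p of 0.211. Without replicate 4 the second-reading mean of Gad1 was 0.26, and without replicate 3 its first-reading mean was 0.26.

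Gabat, the enzyme of GABA breakdown, had a value of 0.22 on array 2 and of -0.03 on array 4, and no value on arrays 1 and 3. These are at percentile 77.7 and 45.8 of their arrays. With 2 arrays, 1 of each dye orientation, Gabat was below the minimum of 3 arrays. When clones on 2 arrays were admitted, its mean was 0.13 ± 0.21 in the first reading and 0.09 ± 0.18 in the second (SE, n = 2, limma adjusted p = 1.00 and 0.870).

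Eaat2, the transporter of the group, varied most between arrays as deposited, with an SD of 0.46, against 0.28 for Gdh. With arrays 3 and 4 turned Gdh varied most, with an SD of 0.55, against 0.43 for Eaat2. The values of Eaat2 as deposited were -0.37 on array 1, 0.29 on array 2 and 0.52 on array 4, with none on array 3. Array 1 was low, at percentile 15.3 of its clones, and array 4 high, at percentile 96.0, and 91.9% of the clones tested had a smaller SD over the arrays as deposited, or 77.8% with arrays 3 and 4 turned. On these 2 arrays the duplicate spots also differed most, with 0.59 and 0.96 before centring on array 1 and 1.13 and 1.47 on array 4, whereas on array 2 they gave 1.07 and 1.10.

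The mean of Eaat2 was -0.20 ± 0.20 in the first reading (SE, n = 3, 95% interval -0.63 to 0.23, limma adjusted p = 0.999) and 0.15 ± 0.18 in the second (interval -0.25 to 0.55, limma adjusted p = 0.718). Both means rest on arrays 1 and 2 and array 4 alone, so that a dye effect does not cancel in them. In the second reading the first spots alone gave 0.02 and the second spots 0.27. The second mean was 0.41 without replicate 1, 0.08 without replicate 2 and -0.04 without replicate 4. In the first reading it was -0.12, -0.45 and -0.04 without the same replicates.

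Counted as a group, 0 of the 4 tested genes passed in either direction in the first reading, where 0% of all 854 tested clones were called higher and 0% lower (limma, adjusted p under 0.05), with 6 clones above and 13 below 0 before adjustment at the same threshold. The same counts held in the second reading, 0 of 4 against 0% and 0%. By SAM's one-class statistic, which the design text names, 0 of the 854 clones were called in either reading. At an unadjusted p under 0.05 in limma, 2 of the 4, Gdh and Gs2, were higher in the second reading, where 12.5% of all clones were higher and 2.69% lower. In the first reading 0 of the 4 were, against 0.703% higher and 1.52% lower.

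The medians of the 4 genes set these counts in place. The median of their means was -0.01 log2 units in the first reading, against 0.00 over all tested clones, with 2 of 4 above 0, against 48.8% of all clones. In the second reading it was 0.23, against 0.09 over all tested clones, with 4 of 4 above 0, against 66.7%. The tested clones as a whole lay above the medians taken over all clones, by 0.09 at their median. Centred on the tested clones instead, the second-reading mean was 0.32 for Gdh, 0.20 for Gs2, 0.06 for Eaat2 and -0.01 for Gad1. As deposited, 25.8% of all tested clones were above the array median on every array that measured them, and of the 4 genes this held for 2, Gdh and Gs2. With arrays 3 and 4 turned it held for 7.73% of the clones and for 0 of the 4 genes.

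**Figure D2:**
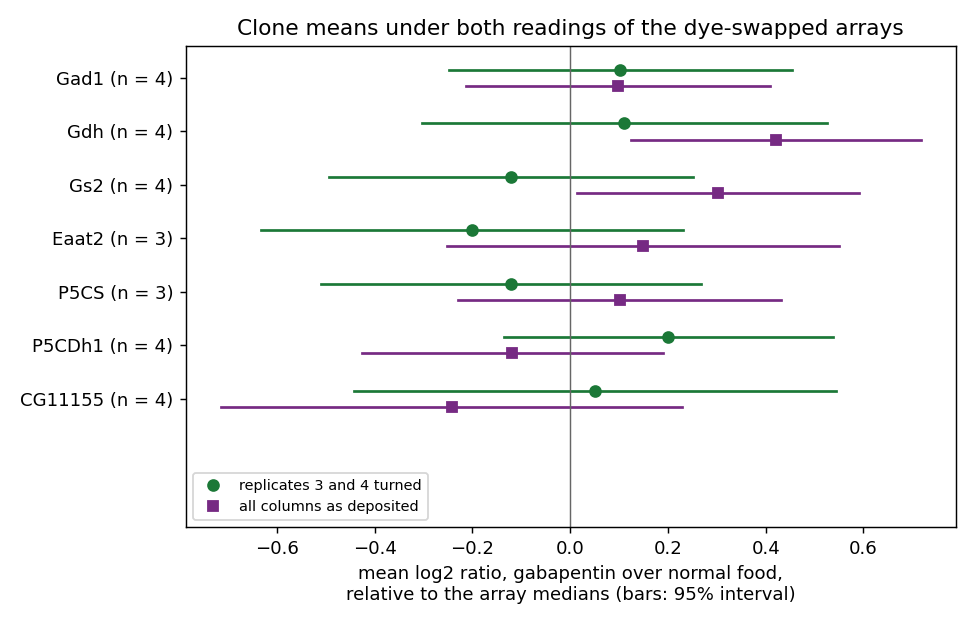
Mean log2 ratio relative to the array medians, with its 95% interval from limma, for the 4 tested genes and 3 further clones of the pathway. Ratios are read as gabapentin over normal food, a direction that the labels do not state. Circles have replicates 3 and 4 turned and squares have all columns as deposited; all intervals of the first reading include 0, and in the second only those of Gdh and Gs2 do not, before adjustment for 854 clones.

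Without centring, the direction rests on the offset that all clones share. All 17 values of the group were above 0 as deposited, between 0.39 and 1.59. In the second reading without centring Gad1, Gdh, Gs2 and Eaat2 then stood at 0.91, 1.23, 1.11 and 1.05 log2 units and all 4 passed (limma adjusted p between 1.65e-08 and 1.23e-05). So did 97.5% of all clones, all called higher, and the shares of all clones with a lower mean than the 4 genes were 50.0%, 93.6%, 83.5% and 75.6%. In that fit the SE was the same, 0.196, for Gad1, Gdh and Gs2. The p-values thus rest on a spread pooled over clones that share each array's offset, and not on each gene's own spread over the arrays. In the first reading without centring 0 of the 4 passed, against 0% of all clones called higher and 0% lower, and the means were 0.26, 0.27, 0.04 and 0.19.

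For the 186 clones with a value on all 4 arrays the readings can be set against each other in 1 fit, as a component shared by both dye orientations and a component opposite between them. The shared component was 0.42 ± 0.15 for Gdh, 0.30 ± 0.14 for Gs2 and 0.10 ± 0.15 for Gad1 (SE, n = 4 each, limma adjusted p = 0.101, 0.209 and 0.704). The opposite component was 0.11 ± 0.15, -0.12 ± 0.14 and 0.10 ± 0.15 for the same genes, each with a limma adjusted p of 0.967. The medians over all 186 clones were 0.12 and -0.01, and the middle range from the 25th to the 75th percentile spanned -0.02 to 0.26 and -0.10 to 0.09. Gdh and Gs2 were above this range for the shared component, Gdh and Gad1 above it and Gs2 below it for the opposite one, and none passed the test.

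**Figure D3:**
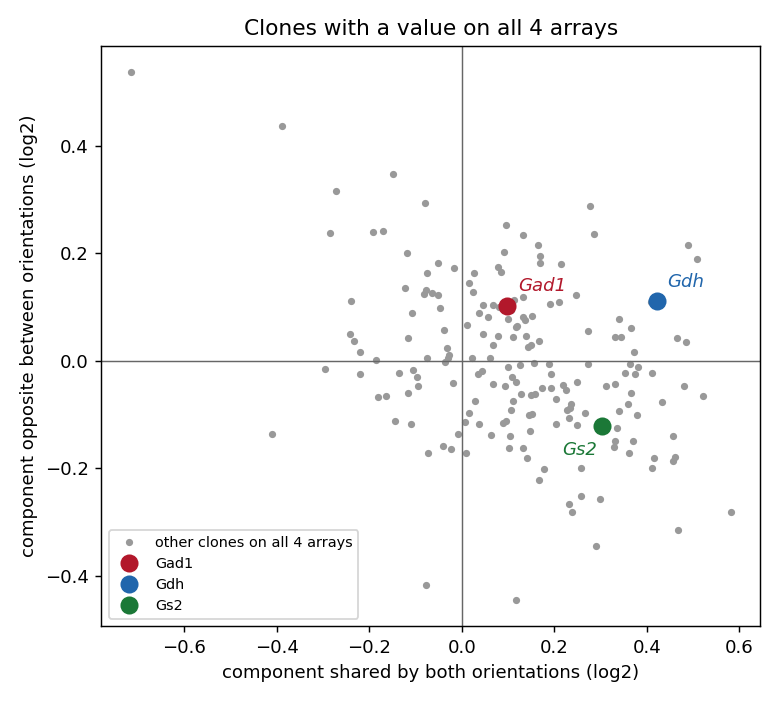
Each point is 1 of the 186 clones with a value on all 4 arrays; the horizontal axis is the component shared by both dye orientations and the vertical axis the component opposite between them, in log2 units relative to the array medians. Gdh lies at 0.42 and 0.11, Gs2 at 0.30 and -0.12 and Gad1 at 0.10 and 0.10, inside the cloud of the other clones.

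Differences between genes within an array do not depend on the centring. The deposited ratio of Gdh exceeded that of Gad1 by 0.28, 0.39, 0.24 and 0.39 log2 units on arrays 1 to 4, a mean of 0.32 ± 0.08 (SD, n = 4). The 3 pairs that can be formed from genes on all arrays were compared after the values had been seen and were not tested. Gs2 minus Gad1 gave -0.09, 0.05, 0.30 and 0.56. Gdh minus Gs2 gave 0.37, 0.33, -0.06 and -0.17. Which pair keeps 1 sign depends on the reading, since the differences on arrays 3 and 4 change sign in the first. Gdh minus Gad1 then had a mean of 0.01 ± 0.38 (SD, n = 4) and no common sign, whereas Gdh minus Gs2 was positive on all 4 arrays, with a mean of 0.23 ± 0.14 (SD, n = 4), against 0.12 ± 0.27 as deposited.

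**Figure D4:**
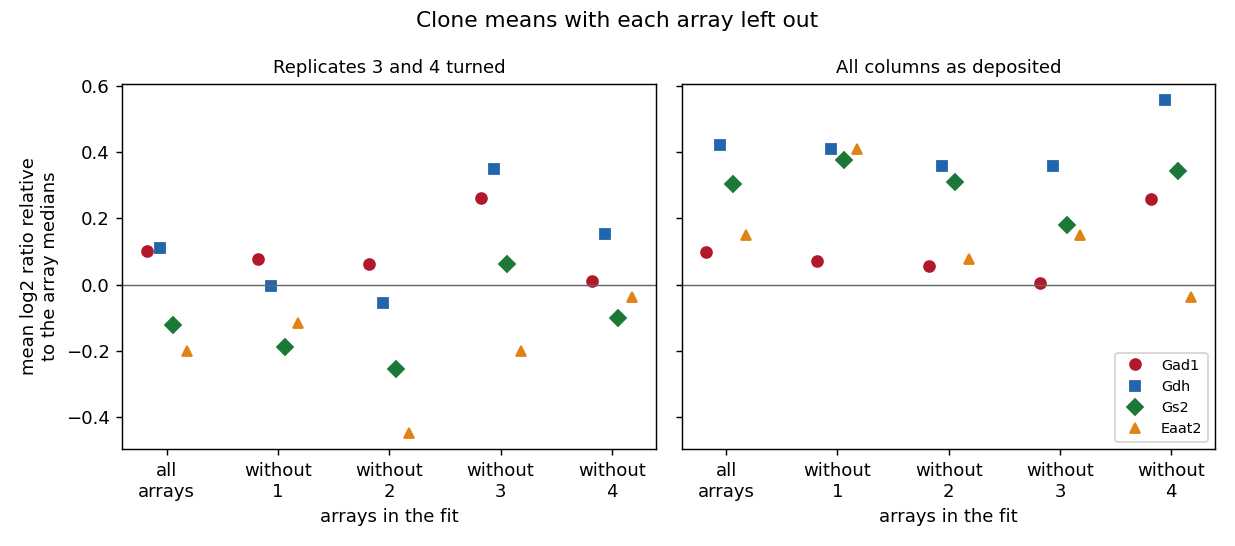
Mean log2 ratio relative to the array medians for Gad1, Gdh, Gs2 and Eaat2, from all arrays and with each array left out. Replicates 3 and 4 are turned on the left, and all columns are as deposited on the right. Ratios are read as gabapentin over normal food, a direction that the labels do not state. On the left Gdh moves between -0.06 and 0.35 and crosses 0; on the right Gdh stays between 0.36 and 0.56 and Gs2 between 0.18 and 0.38.

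Other genes of the pathway were mostly without values. The list drawn up for GABA and glutamate synthesis, breakdown, transport and receptors held 43 genes beside the 5. Of the 43, 24 had a clone with their symbol, 6 a value on any array and 3 a value on at least 3 arrays. Of these 3, 0 passed in either direction in either reading. All 3 genes listed as GABA receptors that had a clone, Lcch3, GABA-B-R3 and CG12344, lacked a value. CG12344 now has the symbol alka, and CG8199, listed under glutamate metabolism and also without a value, the symbol BckdhA. Whether these entries belong to the pathway was not checked, and the counts include them.

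P5CDh1, an enzyme of proline breakdown that forms glutamate, had -0.05, 0.21, -0.08 and -0.55 as deposited on arrays 1 to 4, and means of 0.20 ± 0.16 in the first reading and -0.12 ± 0.14 in the second (SE, n = 4, limma adjusted p = 0.999 and 0.711). Array 4 was the lowest, as it was for Gad1 and Gdh. P5CS, which starts proline synthesis from glutamate, had -0.12, 0.09 and 0.33 on arrays 1 to 3, and means of -0.12 ± 0.18 and 0.10 ± 0.15 (SE, n = 3, limma adjusted p = 0.999 and 0.781). CG11155, a predicted glutamate receptor of the kainate kind, had 0.25, -0.63, -1.04 and 0.46 on arrays 1 to 4, the widest range of these clones, with means of 0.05 ± 0.23 and -0.24 ± 0.22 (SE, n = 4, limma adjusted p = 0.999 and 0.626).

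Clones whose values over the arrays were most like those of each gene were named by the root mean square difference of the deposited values relative to the medians. Gdh was closest to TP53INP, inaD and ND-ASHI, with differences of 0.12, 0.13 and 0.20 log2 units over 4 arrays, against a median of 0.44 over the 91 clones with 1 symbol searched. Gs2 was closest to CG12016, RpL39 and ND-ASHI, with 0.09, 0.12 and 0.13, and Gad1 to CG5214, CG12239 and ATPsynE, with 0.11, 0.15 and 0.15. Eaat2, on 3 arrays and among 119 clones, had its closest match in CG2082 at 0.23, followed by JhI-21 and CG3662 at 0.30 each. Each ranking uses 4 or 3 points and arrays that share their dye and offset, and is a description.

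Markers of cell types of the head were checked beside these genes. Of 10 glia markers listed, 6 had a clone and only Gs2 itself had a value, so no independent glia marker stands beside it. Of 10 neuron markers, 4 had a clone and 1, Csp, which encodes a synaptic vesicle protein, was tested, at -0.13 ± 0.20 in the first reading and -0.17 ± 0.17 in the second (SE, n = 3, limma adjusted p = 0.999 and 0.648). Of 12 photoreceptor markers, 6 were tested. In the second reading 5 of them were positive, from 0.29 for inaC to 0.61 for trp, against 66.7% of all tested clones. Galphaq was at -0.22, and the limma adjusted p of the 6 ran from 0.209 to 0.611. In the first reading the 6 ranged from -0.22 to 0.24. Of 8 muscle markers 3 were tested, with means from 0.11 to 0.55 in the second reading and from -0.48 to 0.02 with arrays 3 and 4 turned. Their limma adjusted p ran from 0.209 to 0.733 in the second reading and was 0.999 for each in the first. Of 8 fat body markers 1 was tested, apolpp, and of 5 testis markers 0 were. The tested apolpp clone had a mean of -0.08 ± 0.22 as deposited and of -0.42 ± 0.19 with arrays 3 and 4 turned (SE, n = 4, limma adjusted p = 0.894 and 0.999). Its values as deposited ran from -1.06 on array 2 to 0.69 on array 4. A second apolpp clone had -0.20 and -0.96 on arrays 1 and 2 only and was not tested. The part of these markers in the values of Gdh and Gs2 was not tested.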

How the data were processed

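Per the series' design text, the authors quantified the arrays with GenePix Pro 6.0, normalized ratios in Acuity 4.0 and dropped spots with 3% or more saturated pixels, a regression R2 under 0.6 or a signal-to-noise ratio under 3. Each array has 1 column of deposited ratios, read here as log2. The base is inferred from the largest size of 9.11, which is above the bound of 4.82 for log10 in a 16-bit scan. It is also above 6.49, the bound for natural logarithms if the weaker channel is at least 100 units. The log2 bound at that floor is 9.36. Without the floor natural logarithms are not excluded, so log2 and the fold ratios rest on it. Centring and direction are not given in the sources used here. Duplicate spots were averaged, and each array's median over all clones was subtracted. Clones with a value on at least 3 of 4 arrays entered limma (version 3.58.1, R 4.3.3; lmFit, eBayes, Benjamini-Hochberg over all 854 clones, threshold 0.05). SE values are moderated over all clones. SAM's one-class statistic was run with all 16 sign changes. The fit was run on simulated data with independent noise and planted shifts larger than any mean of the 4 genes. That run does not bear on differences as small as those reported here. Python 3.11.15 and pandas 2.3.3 served for tables. The members, the pathway and marker lists, the tests and the rule for names (all members, pathway genes on at least 3 arrays, and the 3 clones most like each member) were chosen with earlier results of these data known. Symbols come from the platform annotation, updated with the RefSeq table of Release 6 plus ISO1 MT; no coordinates are printed, since the sources name no build. The number of arrays limits the precision.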

Additional observations from a re-analysis of the deposited data

How the results depend on the processing

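Every fit is paired by design, since each array holds both conditions, and the 1 group of arrays leaves no further pairing to test. In each reading 16 other settings were run. Eaat2, without a value on array 3, entered 14 of them, and leaving out replicate 3 removed none of its values. With the arrays centred, none of them brought Gad1, Gdh, Gs2 or Eaat2 past the threshold in either reading. Without centring, all 4 passed in the second reading (0.91, 1.23, 1.11 and 1.05), with 833 of 854 clones called and a median of 1.08 over the 4 genes; in the first, Gs2 and Eaat2 turned to 0.039 and 0.19. From the first to the second reading Gs2 turned to 0.30 and Eaat2 to 0.15. Centred on the tested clones, the second-reading mean of Gad1 turned to -0.0054. Leaving out 1 replicate gave 0.01 to 0.26 for Gad1, -0.056 to 0.35 for Gdh, -0.25 to 0.062 for Gs2 and -0.45 to -0.04 for Eaat2 in the first reading. In the second it gave 0.01 to 0.26, 0.36 to 0.56, 0.18 to 0.38 and -0.038 to 0.41. The count of called clones ran from 0 to 11 in the first reading and 0 to 13 in the second when 1 replicate was left out. The fits with 11 and 13 calls gave Gad1, Gdh and Gs2 the same SE, 0.165 and 0.185, from a spread pooled over clones. In the second reading the count was 1 with scaled arrays, 1 with the first spots, 1 with robust moderation and 3 when centred on the tested clones. Of other pathway clones, CG11155 turned to -0.031 with scaled arrays and to -0.24 in the second reading, where it was 0.57 without centring, and ran from -0.28 to 0.28 and from -0.48 to 0.025 without 1 replicate. P5CDh1 turned to -0.12 in the second reading, where it was 0.69 without centring and ran from -0.23 to 0.027 without 1 replicate. P5CS turned to 0.35 without centring and to 0.10 in the second reading, where it was 0.92 without centring, -0.0046 when centred on the tested clones and -0.015 to 0.21 without 1 replicate. The cause of these shifts was not tested.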
